A study of Mus musculus with 6 samples.

Results

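The histone genes of small intestinal organoids were compared between treatment with MMK-1 and vehicle. The members were chosen as every protein-coding row of the deposited table whose symbol begins as one of the clustered histone genes (H2ac, H2bc, H3c, H4c) or of the linker histone genes (H1f). This gave 67 of 21397 genes (16428 of them protein-coding), of which 9 belonged to H1, 16 to H2A, 17 to H2B, 12 to H3 and 13 to H4. The organoids, which are three-dimensional epithelial cultures grown in Matrigel with IntestiCult medium, came from crypts of Fpr2 f/f mice. These mice carry floxed Fpr2 alleles on a C57BL/6J background, were aged 8–12 weeks per the study's methods, and no Cre is named for these samples, so both groups share the unrecombined allele. The MMK-1 group (3 libraries) was exposed to MMK-1, a synthetic peptide agonist of formyl peptide receptor 2, for 5 days, and the Control group (3 libraries) to 0.1% DMSO. The dose is 1 μM in the protocol text and 1 mM in the treatment label. Per the study's methods and legends each sample pooled organoids of 3 mice, and whether the samples of a group came from different mice or cultures is not given, so the p-values below measure only the spread between these pooled samples, which may be technical.

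Histones package DNA into nucleosomes, each built from H2A, H2B, H3 and H4, and linker histone H1 binds where DNA enters and leaves. Most members are replication-dependent: their genes lie in clusters, lack introns, are transcribed in S phase when new DNA has to be packaged, and give mRNAs that end in a conserved stem-loop rather than a poly(A) tail. The stem-loop is bound by SLBP and cut by a complex that holds the U7 small nuclear RNA. Replacement histones, such as H3.3, H2A.Z and the linker histone H1.0 encoded by H1f0, are made outside S phase as well and have ordinary polyadenylated mRNAs. In the intestinal crypt, stem cells and their dividing descendants are the cells in S phase, whereas villus enterocytes no longer divide.

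The sequence that sets these mRNAs apart is shown for the members on which the results below rest. A script searched the GENCODE transcripts of all members (GRCm38, the assembly also called mm10, which the submitters' processing notes name) for the 16-base stem-loop. It was found in 44 of 67 members and in 68 of 21901 protein-coding genes (0.31%). Each sequence is given 5′ to 3′ as the DNA letters of the transcript, with the paired stem of 6 bases on either side of the 4-base loop in capitals.
H1f2: aaaaGGCTCTtttcAGAGCCaccactcc
H2ac18: aaaaGGCTCTtttcAGAGCCacccactg
H2ac19: aaaaGGCTCTtttcAGAGCCacccactg
H2bc8: caaaGGCTCTtttcAGAGCCacccatac
H3c8: taaaGGCTCTtcttAGAGCCacccatct
H4c9: taaaGGCCCTttttAGGGCCaccacaaa
H4c11: taaaGGTCCTtttcAGGACCaccacatc

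The commonest form, in H1f2, H2ac18, H2ac19 and H2bc8, was carried by 25 members of the H1, H2A, H2B and H3 classes. The 12 H4 genes with a match had other stems, such as those of H4c9 and H4c11. By class, the stem-loop was found in 3 of 9 H1, 10 of 16 H2A, 10 of 17 H2B, 9 of 12 H3 and 12 of 13 H4 genes. No match was found for H1f0, H2bc4, H2bc21 and H4c12, and of the 23 members without a match, 13 have annotated transcripts under 600 bases, some of which stop at the end of the coding sequence.

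Histone genes took few of the sequenced fragments. Whole fragments could be recovered from the FPKM values, and the libraries held 35512739 to 37537463 fragments. Of these, members received 15202, 15262 and 15213 in Control and 21679, 21005 and 23768 with MMK-1. Scaled to a depth of 1000000 fragments (CPM), this was 406, 407 and 407 against 610, 585 and 640. A single gene, H1f0, gave 81.3% to 86.6% of them in each library. With H1f0, H1f2, H2bc4, H2bc21 and H4c9 counted together, 98.45% of the fragments on members were accounted for. Most other members were close to the limit of detection: 41 of 67 had no fragment in at least 1 library, 44 never had more than 10 and 20 never more than 3. H1f8, the oocyte linker histone, and H2ac22 had no fragment in any library, where a count of 0 allows up to 3 fragments, or 0.0799 to 0.0845 CPM. These floors cover counting error only. The step that selected RNA before library preparation is not given in the sources used here, and how many histone mRNAs without a poly(A) tail it would have kept cannot be told from these values. None of 24 symbols of other RNAs without a poly(A) tail matched a row, so that comparison was not made.

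**Figure D1:**
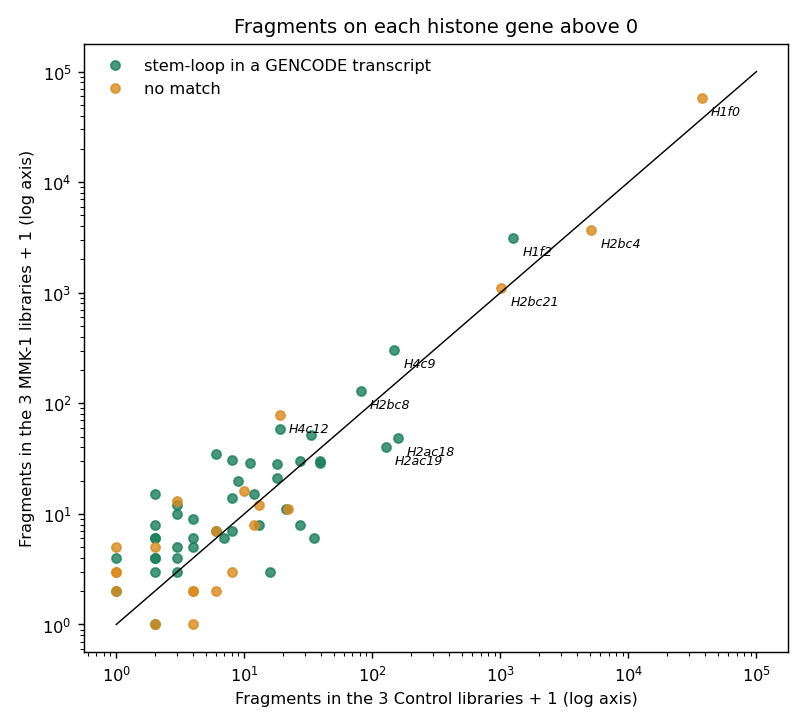
Fragments on each of the 65 histone genes above 0, summed over the 3 Control libraries (x axis) and the 3 MMK-1 libraries (y axis), each plus 1 on log axes; the line marks equal sums and colour marks a stem-loop in a GENCODE transcript. H1f0 lies alone at the top right, and most genes lie in the lower left corner with under 30 fragments in either group.

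Of the 67 members, 9 had a mean FPKM of at least 1 over the 6 libraries and were tested with limma on log2(FPKM + 1) together with 10551 genes. H1f2, H4c12, H4c9, H1f0 and H2bc8 were higher with MMK-1, H2ac18, H2ac19 and H2bc4 were lower, and H2bc21 did not pass. Thus 5 of 9 members (55.6%) were called higher at an adjusted p of at most 0.05, where 48.5% of all genes tested were, and 3 of 9 (33.3%) were called lower, against 24.7%. Both shares are close to the background of a comparison in which 73.2% of genes were called. The median difference of the 9 was 0.47 on the log2 scale, and that of all genes tested was 0.13. With no minimum, the median of the 65 members above 0 was 0.05 and that of all genes 0.01. In all 9 the Control and MMK-1 libraries did not overlap in FPKM, as was the case for 76.8% of all genes tested (50.5% higher and 26.3% lower). With 3 libraries against 3 the smallest p of an exact two-sided permutation test is 0.1, and each of the 9 genes reached it. H4c12 passed the FPKM minimum through its MMK-1 libraries, and H2ac18 and H2ac19 through their Control libraries, so for these genes passing the minimum was not independent of the difference.

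**Figure D2:**
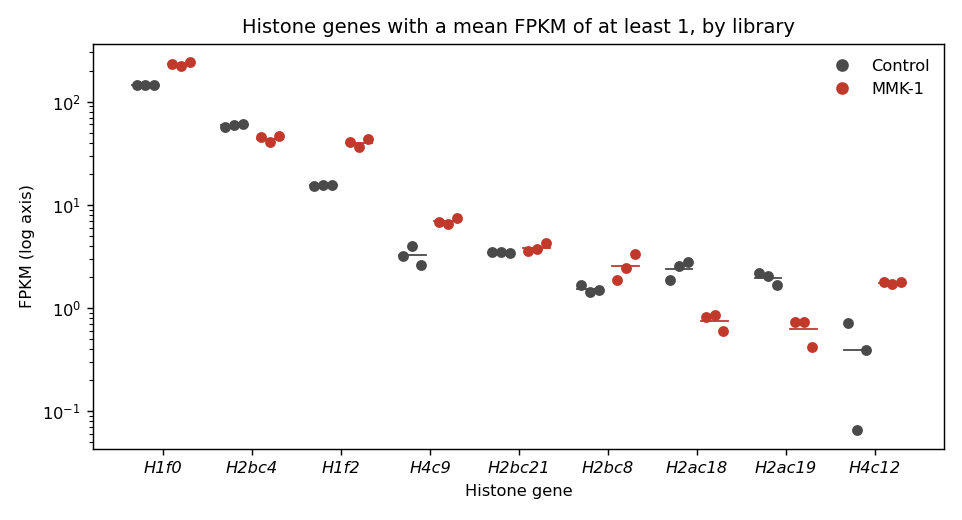
FPKM (log axis) of the 9 tested histone genes in each library, with Control libraries in grey and MMK-1 libraries in red; the short lines are group means. The group means run from 230.1 FPKM for H1f0 with MMK-1 down to 0.39 for H4c12 in Control, and in each gene all 3 libraries of one group lie above those of the other.

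Both linker histone genes that were tested rose. H1f0 (NCBI gene 14958, chr15:79028212-79030504, plus strand), which encodes the replacement linker histone H1.0, had 145.2, 144.4 and 144.3 FPKM in Control and 229.5, 220.9 and 239.9 with MMK-1. The means were 144.6 ± 0.496 and 230.1 ± 9.56 (SD, n = 3), and the log2 fold change was 0.67 (SE 0.041, limma adjusted p = 1.41e-06). An annotated gene on the opposite strand, Gm49544, overlaps H1f0, and whether the counting used strand is not stated. H1f2 (NCBI gene 50708, chr13:23738807-23739531, plus strand), which encodes the replication-dependent linker histone H1.2, had 15.3, 15.6 and 15.6 FPKM in Control and 40.7, 36.4 and 43.1 with MMK-1. Its means of 15.5 ± 0.148 and 40.0 ± 3.42 FPKM (SD, n = 3) differed by 1.31 on the log2 scale (SE 0.0609, limma adjusted p = 2.58e-07). On this scale that is the largest difference among the 9, but the ratio of mean FPKM was larger for H4c12 (4.48) than for H1f2 (2.59). H1f2 carries the stem-loop, but its GENCODE transcript runs on for 840 bases beyond it and ends with a poly(A) signal (AATAAA) in its last 40 bases. The transcripts of H1f0 and H1f2 share no 150-base stretch with another gene, so their reads could not be split between copies of this length.

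The other 7 linker histone genes were under the FPKM minimum and were scarcely detected. H1f3 had 2, 0 and 5 fragments in Control and 7, 6 and 17 with MMK-1. H1f4 had 4, 1 and 15 against 2, 5 and 3 fragments, and H1f10 had 5, 1 and 6 against 3, 1 and 7, both with overlapping groups. H1f1 had 1 fragment in each Control library and 0 with MMK-1, and H1f5 and H1f9 never exceeded 2 fragments.

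Among the core histones, both tested H2A genes fell. H2ac18 (NCBI gene 15267, chr3:96245497-96246052, plus strand) had 1.87, 2.54 and 2.78 FPKM in Control and 0.816, 0.854 and 0.596 with MMK-1, a log2 fold change of -0.95 (SE 0.109, limma adjusted p = 6.46e-05). H2ac19 (NCBI gene 319192, chr3:96239779-96240374, minus strand) had 2.19, 2.04 and 1.68 FPKM in Control and 0.736, 0.727 and 0.422 with MMK-1, a log2 fold change of -0.87 (SE 0.0996, limma adjusted p = 6.23e-05). Both encode H2A in the smaller cluster on chromosome 3. They are near copies: 87.0% of the 150-base windows of H2ac18 and 100% of those of H2ac19 also occur in another transcript. Annotated genes on the opposite strand overlap both, so their separate values are uncertain. Another annotated gene, Gm20634, overlaps H2ac18 on the same strand and shares windows with both, so the sum of the pair is uncertain too. With no minimum, both were still lower (limma adjusted p = 0.00164 and 0.00137). That fit uses the same values, and both genes were picked out by their level, so it is no independent check. Taken as a pair they had 88, 100 and 97 fragments in Control and 32, 33 and 22 with MMK-1, a ratio of 0.317 in CPM. The other 14 H2A genes together had 24, 36 and 30 fragments in Control and 29, 19 and 23 with MMK-1, and the groups overlapped. Of these, H2ac8 had 6, 14 and 14 against 3, 1 and 1 fragments, and H2ac21 had 5, 13 and 3 against 2, 5 and 3.

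The H2B genes went in both directions. H2bc4 (NCBI gene 68024, chr13:23684199-23692480, plus strand), the most abundant core histone gene among the members, had 56.9, 59.1 and 61.2 FPKM in Control and 44.9, 40.7 and 46.1 with MMK-1. Its means of 59.1 ± 2.15 and 43.9 ± 2.84 FPKM (SD, n = 3) differed by -0.42 on the log2 scale (SE 0.0547, limma adjusted p = 0.000134). No stem-loop was found in its annotated transcript, which has 2 exons and shares 17.4% of its windows with other H2B genes. H2bc8 (NCBI gene 319181, chr13:23571400-23571863, plus strand) had 29, 25 and 26 fragments in Control and 31, 41 and 57 with MMK-1. The log2 fold change was 0.47 (SE 0.129, limma adjusted p = 0.00966), and with no FPKM minimum the gene did not pass (limma adjusted p = 0.0513). MMK-1 library 3 was the highest, and 39.0% of the windows of H2bc8 are shared with other H2B genes. H2bc21 (NCBI gene 319190, chr3:96221072-96223738, plus strand), whose annotated transcript has no stem-loop and ends with AATAAA, had 3.45, 3.47 and 3.42 FPKM in Control and 3.60, 3.69 and 4.22 with MMK-1. Its log2 fold change of 0.12 had a 95% interval of -0.02 to 0.26 and did not pass (limma adjusted p = 0.107). H2bc9, the fourth H2B gene by level, had 4, 11 and 11 against 13, 9 and 7 fragments, with overlapping groups.

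Of the H4 genes, both that were tested rose. H4c9 (NCBI gene 319158, chr13:22040960-22041362, minus strand) had 3.18, 3.97 and 2.59 FPKM in Control and 6.85, 6.49 and 7.42 with MMK-1, a log2 fold change of 0.91 (SE 0.108, limma adjusted p = 7.75e-05). H4c12 (NCBI gene 319160, chr13:21750145-21750553, minus strand) had 11, 1 and 6 fragments in Control and 26, 25 and 27 with MMK-1 (log2 fold change 1.01, SE 0.149, limma adjusted p = 0.000282). Since it reached the minimum through its MMK-1 libraries, the fit with no minimum is given as well, where it was also higher (limma adjusted p = 0.00472). That fit uses the same values, so it is no independent check. H4 genes encode the same or nearly the same protein, and 53.4% of the windows of H4c12 are shared with other H4 genes, against 2.1% for H4c9. The other 11 H4 genes together had 26, 13 and 16 fragments in Control and 32, 43 and 59 with MMK-1, so the groups did not overlap without the tested pair either. Among them H4c11 had 1, 0 and 4 against 1, 10 and 23 fragments, so its sum came mostly from MMK-1 library 3. H4c4 had 6, 3 and 1 against 11, 6 and 11.

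**Figure D3:**
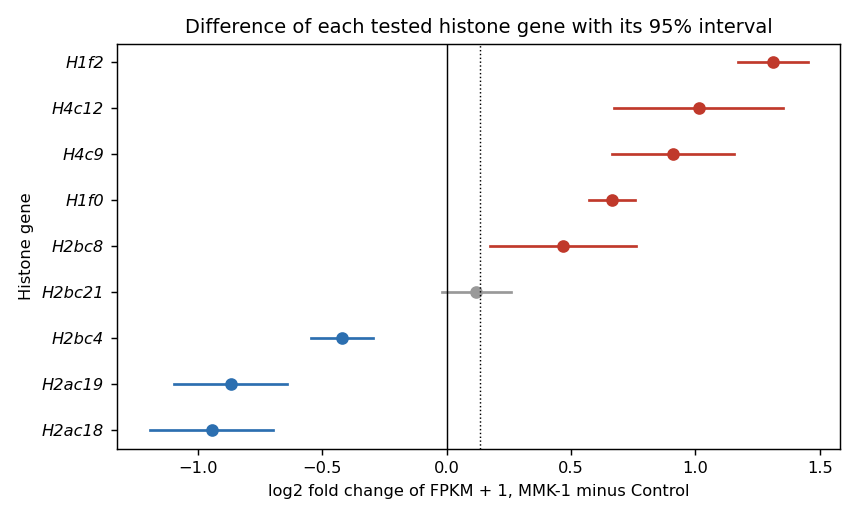
Log2 fold change of FPKM + 1 (MMK-1 minus Control) of the 9 tested histone genes, with the limma 95% interval; red marks genes called higher, blue genes called lower and grey the gene not called, and the dotted line is the median of all genes tested (0.13). The 2 H2A genes and H2bc4 lie below 0, both linker histones and both H4 genes above 0.47, and the interval of H2bc21 includes 0.

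No H3 gene reached a mean FPKM of 1. H3c8, the most abundant, had 2, 9 and 7 fragments in Control and 25, 14 and 18 with MMK-1. H3c14 had 19, 11 and 8 against 11, 7 and 10 fragments, H3c15 had 8, 16 and 14 against 5, 7 and 17, and H3c3 had 0, 7 and 1 against 8, 9 and 2. The groups did not overlap for H3c8 and overlapped for the other 3. All windows of the transcripts of H3c14 also occur in another transcript, so its value is uncertain. The shared part was 59.4% for H3c15, 26.0% for H3c8 and 15.6% for H3c3.

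Summed by class, the direction differed between classes. The H4 genes together had 2.27, 1.97 and 1.63 CPM in Control and 4.39, 4.51 and 5.30 with MMK-1, a ratio of 2.42. The H3 genes had 1.07, 1.47 and 0.963 against 1.69, 1.84 and 1.56, a ratio of 1.46 that became 1.16 with overlapping groups when H3c8 was left out. The H2A genes had 2.99, 3.62 and 3.40 against 1.72, 1.45 and 1.21, a ratio of 0.437 that became 0.818 with overlapping groups when H2ac18 and H2ac19 were left out. For H2B the direction rested on H2bc4: the class had a ratio of 0.821 with it and of 1.14 without it. Among the H1 genes other than H1f0 the ratio was 2.54, and without H1f2 as well it was 1.25 with overlapping groups. The 44 members with the stem-loop together had 18.7, 20.01 and 18.9 CPM in Control and 38.5, 35.5 and 41.6 with MMK-1, a ratio of 2.01 that fell to 1.19 when H1f2 was left out.

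**Figure D4:**
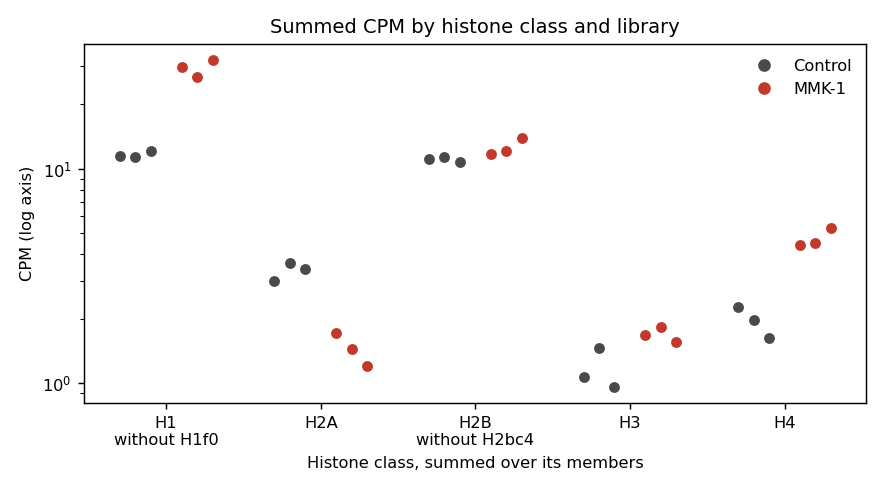
CPM (fragments scaled to a depth of 1000000, log axis) summed over the members of each histone class in each library, Control in grey and MMK-1 in red, with H1f0 left out of H1 and H2bc4 left out of H2B. H1, H3 and H4 are higher with MMK-1, H2A is lower, and H2B without H2bc4 lies between 10.7 and 14.0 in all libraries.

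The 58 members under the FPKM minimum were also read as counts. Of the 56 with a fragment in any library, 10 (17.9%) were higher with MMK-1 and 2 (3.57%) were lower without overlap, where 18.1% and 9.65% of all genes at that level were. Together they had 152, 167 and 150 fragments in Control and 185, 191 and 219 with MMK-1. In an alternative chosen after seeing the data, limma-voom was run on every gene with at least 10 fragments in all, which held 40 members. It called 9 of these (22.5%) higher and 4 (10%) lower, where 39.0% and 20.5% of all genes in that fit were. Called in this fit beyond the tested genes were H3c8, H1f3, H2ac11, H3c11 and H4c17 among the higher genes and H2ac8 among the lower ones, with adjusted p-values of 0.00826 to 0.0463. Apart from H3c8, these genes had fewer than 10 fragments in one group and reached the minimum through the other, so entering this fit was not independent of the difference. H2ac11 had 0, 0 and 1 fragments in Control and 5, 5 and 4 with MMK-1, H3c11 had 2, 0 and 0 against 4, 4 and 4, and H4c17 had 2, 0 and 0 against 4, 2 and 5. These 3 share 65.5%, 52.7% and 85.8% of their windows with other histone genes. In the same fit H2bc8 did not pass (adjusted p = 0.0692).

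By the study's own rule, a fold of at least 2 with an unadjusted p of at most 0.05, H1f2 and H4c12 were higher and no member was lower, against a background of 3.39% and 3.65% of genes tested. The call of H4c12 was lost without Control library 2 (log2 fold change 0.83), and H4c9 was called in its place. Since 1 is added before the logarithm, low genes are understated: H4c9 had an MMK-1 to Control ratio of 2.13 in FPKM, and H2ac18 and H2ac19 had 0.315 and 0.319. With a pseudocount of 0.5, H4c9 was higher as well and both H2A genes were lower by these cut-offs, against 4.79% and 4.16% of genes tested. In limma-voom on fragments, 3 members were higher and 2 lower by them, against 6.89% and 4.74% of genes tested.

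Promoters of the members were compared as sequence, from 250 bases before to 50 after the first RefSeq start (GRCm38.p6), which matched 62 of 67 members. The tested genes H2bc4 and H2bc21 were among those without a match, so the shares below do not cover them. CCAAT, the letters bound by NF-Y, was present on either strand in 82.3% of members and 37.9% of all promoters, and in all H2A, H2B and H3 promoters but 3 of 12 H4 promoters. TATAA was present in 72.6% of members and 25.5% of all promoters. ATTTGCAT, the octamer bound by POU2F1, was present in 16.1% and 1.75%, in 5 of 16 H2A and 5 of 15 H2B promoters and in no other class. The E2F-type letters TTTCCCGC were present in 1 member and TTTGGCGC in none, against 1.11% and 0.537% of all promoters. The 130 bases before the start are shown for the tested member of each class that carries the stem-loop (for H2A, the first of the pair), with matches to these letters on either strand in capitals (CCAAT reads ATTGG on the other strand).
H1f2, chr13:23738677-23738806, plus strand: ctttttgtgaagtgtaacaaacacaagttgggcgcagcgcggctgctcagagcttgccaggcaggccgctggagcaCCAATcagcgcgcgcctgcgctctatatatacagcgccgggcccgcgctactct
H2ac18, chr3:96245367-96245496, plus strand: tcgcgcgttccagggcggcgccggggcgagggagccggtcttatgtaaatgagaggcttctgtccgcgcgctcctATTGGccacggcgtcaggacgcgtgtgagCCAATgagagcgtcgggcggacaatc
H2bc8, chr13:23571270-23571399, plus strand: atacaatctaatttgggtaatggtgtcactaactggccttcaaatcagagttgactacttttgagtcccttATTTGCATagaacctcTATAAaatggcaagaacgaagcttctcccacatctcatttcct
H4c9, chr13:22041363-22041492, minus strand: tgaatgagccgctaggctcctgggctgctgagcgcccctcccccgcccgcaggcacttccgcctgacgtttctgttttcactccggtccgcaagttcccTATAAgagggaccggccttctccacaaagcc

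H1f2 and H2ac18, which moved in opposite directions, both hold CCAAT within this stretch, and H2bc8 and H4c9 both hold TATAA there. A match describes letters in this window and not a bound site.

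Genes that make, process and carry histones mostly rose. Of 70 tested genes on 4 lists (histone gene transcription, histone mRNA 3′ processing and turnover, histone chaperones and nuclear import, and replacement variants), 57 (81.4%) were higher and 5 (7.14%) lower, where 48.5% and 24.7% of all genes tested were, with a median log2 fold change of 0.42. In the transcription list 9 of 10 tested genes were higher and none was lower. Npat, the coactivator of histone genes at the histone locus body, had 1.83, 1.70 and 1.65 FPKM in Control and 4.91, 5.06 and 3.87 with MMK-1 (log2 fold change 1.04, limma adjusted p = 8.14e-06). Casp8ap2 (FLASH), another component of that body, rose by 0.76 on the log2 scale and Ccne2, the cyclin E that activates CDK2, by 1.41.

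In the list for 3′ processing and turnover, 18 of 24 tested genes were higher, 3 were lower and the median was 0.29. Slbp, whose product binds the stem-loop shown above, had 23.4, 21.5 and 21.4 FPKM in Control and 31.8, 31.3 and 31.4 with MMK-1 (log2 fold change 0.49, limma adjusted p = 1.79e-05). The U7 particle proteins Lsm10 and Lsm11 rose by 0.65 and 0.38, and Eri1, an exonuclease that trims the histone mRNA end, by 0.92. Dis3l2, a 3′ exonuclease, fell by 0.57 and Cstf2t by 0.27.

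Chaperones and importers were higher in 24 of 29 tested genes and lower in 1, with a median of 0.54. Chaf1a and Chaf1b, subunits of the CAF-1 complex that deposits H3 and H4 on new DNA, rose by 1.00 and 1.05, Asf1b by 0.92, Nasp, the soluble H3 and H4 chaperone, by 0.54 and Nap1l1 by 1.09. Hjurp, the chaperone of the centromeric H3 variant CENP-A, was the gene that fell, by 0.33, and Cabin1 had -0.11 and did not pass.

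The measured levels of the H3 replacement variants were far above those of the clustered H3 genes, most of which carry the stem-loop. The RNA selection step is not stated, and its part in this gap was not tested. H3f3a, which encodes H3.3, had 343.4 FPKM in Control and 437.9 with MMK-1 (log2 fold change 0.35), and H3f3b had 156.0 and 184.8 (0.24), whereas all 12 clustered H3 genes summed to 1.41 to 2.30 FPKM in Control and 2.55 to 3.15 with MMK-1. H2az1, which encodes H2A.Z, went from 157.0 to 295.9 FPKM (0.91) and Cenpa from 14.7 to 32.1 (1.07), and both passed. H2aj, the H2A.J variant, fell by 0.23, so that 6 of 7 tested variants were higher and 1 lower. Macroh2a2, the variant under the FPKM minimum, had means of 0.0098 FPKM in Control and 0.0033 with MMK-1. Processed copies of H3f3a and H3f3b elsewhere in the genome could share their reads. Level comparisons between genes here rest on the authors' gene lengths, which equal the RefSeq gene span for 53 of 65 members.

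S-phase genes were higher in 22 of 23 tested cases, with a median of 0.85. Pcna, the sliding clamp of DNA polymerase, had 103.8 FPKM in Control and 145.8 with MMK-1 (log2 fold change 0.49), the proliferation marker Mki67 13.9 and 27.6 (0.94), the primase subunit Prim1 9.04 and 20.3 (1.08) and Ccna2, cyclin A2, 23.7 and 49.4 (1.01). The H2A pair and H2bc4, with log2 fold changes of -0.95, -0.87 and -0.42, had the opposite sign to most of this list.

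**Figure D5:**
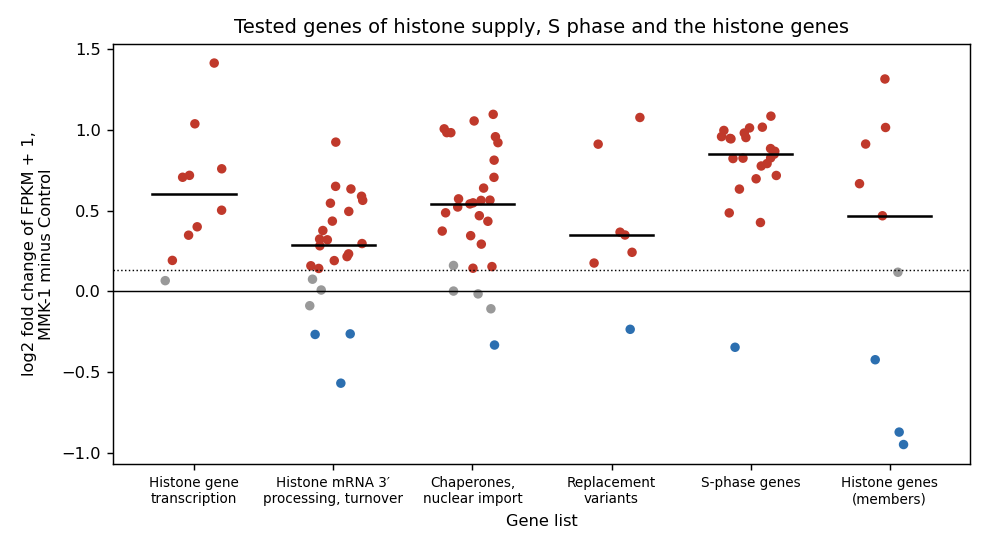
Log2 fold change of FPKM + 1 (MMK-1 minus Control) of each tested gene on 5 lists and of the 9 tested histone genes; red marks genes called higher, blue lower and grey not called, black bars are list medians and the dotted line is the median of all genes tested. The S-phase list lies highest with a median of 0.85, and the histone genes are the most spread, from -0.95 to 1.31.

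Levels of cell type markers moved with these results. Of 6 epithelial markers, Cdx2, Cdh1 and Krt18 were higher, Vil1 and Krt8 were lower and Epcam did not pass; Epcam had 391.7 FPKM in Control and 390.8 with MMK-1, and Vil1 fell from 565.8 to 244.8. The fibroblast, endothelial, immune and muscle lists each summed to at most 1.07 FPKM in any library, with the endothelial marker Kdr at 0. All 4 stem cell markers were higher with MMK-1 (summed level 40.4 to 40.7 FPKM in Control, 289 to 304 with MMK-1), as were all 4 Paneth cell markers (121 to 123 against 546 to 586). All 5 enterocyte markers were lower (5290 to 5340 against 1660 to 1700 FPKM). Of the goblet cell markers 3 were higher and 1 lower, of the enteroendocrine markers 3 of 4 were higher and none was lower, and no tuft cell marker reached the minimum. The part of these shifts in the histone values was not tested, and in bulk RNA fewer cells of a type and less RNA per cell cannot be told apart.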

How the data were processed

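RNA-seq of 3 Control and 3 MMK-1 organoid libraries was used. The authors deposited FPKM values per gene (fragments divided by gene length and library total); the submitters' processing notes name HISAT2, HTSeq, R 3.2.0, DESeq2 and mm10, without roles. Libraries were made with the VAHTS Universal V10 kit and read as paired ends; RNA selection and strand are not given in the sources used here. All deposited values came out as whole fragments within 0.001, and in simulated data 99.62% of 19899 genes were recovered exactly. The simulated recovery was given the true gene lengths, an easier setting than the real one. The real recovery was given RefSeq gene spans, which equal the implied length for 53 of 65 members. The main test was limma 3.58.1 (R 4.3.3) with a trend on log2(FPKM + 1), mean FPKM of at least 1, Benjamini-Hochberg adjustment; of 200 simulated changed genes among 10372, 193 were recovered with 11 false calls. Fold changes on this scale understate low genes. The members and lists were chosen with earlier results of these data known. Named were all H1 genes, the 4 most abundant of each core class, the 2 tested genes per class or list changing most in each direction, and preset supply genes, except 1 item that is not reported here; members first called in the added fragment fit were named after their values were seen. Alternatives changed scaling, filter, pseudocount, test, GC and length correction, replicate block and left-out libraries. The labels do not say whether equal replicate numbers mark a shared culture, so the main test did not pair the libraries.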

Additional observations from a re-analysis of the deposited data

How the results depend on the processing

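The 8 called members kept their direction under every alternative run, and of 166 values of the 9 members 163 kept their side of the threshold. H2bc8 lost its call with every gene above 0 (log2 fold change 0.47, adjusted p = 0.0513) and with limma-voom over genes of at least 10 fragments (0.69, adjusted p = 0.0692), and H2bc21 was called higher after length correction (0.16, adjusted p = 0.0405). Counts of members followed the filter. With every gene above 0, 9 of 65 members (13.8%) were higher and 5 (7.69%) lower, where 28.1% and 15.2% of all 20676 genes were. With a mean FPKM of at least 5, 3 of 4 were higher and 1 lower (47.1% and 26.4% of all genes), 1 was higher by a fold of 2, and the H2B median turned to -0.42 because only H2bc4 remained. Of the alternatives chosen after seeing the data, limma-voom with at least 10 fragments gave 9 higher by adjusted p and, as a separate count by fold, 9 higher and 4 lower (10.9% and 7.2% of all genes). Pseudocount 0.1 with every gene gave 9 higher and 5 lower (28.3% and 15.3% of all genes), and by fold 9 and 4 (5.31% and 3.96%).

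At a fold of at least 1.5, 4 of 9 members (44.4%) were higher and 2 (22.2%) lower, where 14.2% and 8.1% of all genes tested were. By a fold of 2, members higher were 1 with upper-quartile scaling, 1 when MMK-1 replicate 3 was left out as well (chosen after seeing the data), and 1 with GC correction, with or without the replicate block (2.62%, 3.25% and 3.2% of all genes), and they were 3 with pseudocounts 0.1 and 0.5, limma-voom and length correction, where all genes had 6.41%, 4.79%, 6.89% and 3.42% (3.39% in the main test). Members lower by a fold of 2 were 2 with pseudocounts 0.1 and 0.5, limma-voom and GC correction, with or without the block (4.61%, 4.16%, 4.74% and 3.43% of all genes). Leaving out each library gave 5 higher, 3 lower and 2 higher by fold throughout, with H4c9 in place of H4c12 without Control replicate 2, and 0 to 1 lower by fold, H2ac18 without Control replicate 1. Of all genes in these fits, 44.6% to 49.2% were higher and 22.4% to 27.9% lower. By fold, 3.18% to 4.11% of all genes were higher and 3.5% to 3.72% lower.

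Of the 70 supply genes, 53 to 56 were higher, 5 to 6 lower and 5 to 7 higher by fold when a library was left out. In the main test 6 were higher by a fold of 2 and 21 by a fold of 1.5. Higher by a fold of 2 were 2 with upper-quartile scaling, 10 with pseudocount 0.1 with or without a filter, 11 with limma-voom and 12 with at least 10 fragments; without MMK-1 replicate 3 under upper-quartile scaling 50 were higher and 8 lower by adjusted p, and 4 higher by fold. Cabin1 was called lower under 6 alternatives. All genes split into 5118 higher and 2606 lower in the main test, 4395 and 3291 with upper-quartile scaling, and 4539 and 3536 with that scaling and without MMK-1 replicate 3. Same-numbered libraries did not deviate together (correlations 0.0253, -0.04 and 0.0279), which cannot exclude a shared culture. The replicate block was an alternative only. It left 5 members higher and 3 lower, where 47.6% and 24.1% of all genes tested were, and changed no call of a named gene. Depth limits the 58 members under the FPKM minimum, of which none exceeded 25 fragments in a library. Near-identical copies, overlapping genes and unknown strand limit single values.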
